A study of Homo sapiens with 47 samples.

Results

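The Integrator and 3' end processing genes are 34 genes, taken by symbol from a count table of 58395 genes. They encode 14 subunits of the Integrator complex, 18 cleavage and polyadenylation factors, and 2 termination factors, XRN2 and SSU72. All 34 were found, and all 34 passed the filter on low counts that left 28025 genes for testing. The lowest group mean among them was 15.3 CPM (counts scaled to a common library size), for INTS9.

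RNA was depleted of ribosomal RNA and sequenced from 3 wild-type and 3 EAF1-mutant libraries of HEK293T, a human embryonic kidney line that carries the SV40 large T antigen. EAF1 is a subunit of the little elongation complex, which the MED26 subunit of Mediator recruits to genes, and the study asked how loss of that contact affects genes whose RNA ends without a poly(A) tail. Wild-type cells were unedited HEK293T. EAF1-mutant cells carried a CRISPR knock-in on both alleles that replaces residues of the MED26-binding site of EAF1 with alanine. The methods describe a single mutant line grown from an edited clone, so what the mutation does and what is peculiar to that line cannot be told apart. Nothing in the sample labels says that the replicates were separate cultures, although the methods speak of biological replicates in general, so the p-values measure the spread between these libraries. Total counts ran from 52541541 to 66611451 per library, and the 34 genes held between 0.298% and 0.313% of them.

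Nascent RNA is cut at its 3' end by related machines. For most protein-coding genes the CPSF and CstF complexes read the signals around the poly(A) site, the endonuclease CPSF3 cuts, and a poly(A) polymerase adds the tail, while histone RNA is cut by a complex that shares CPSF3, CPSF2, SYMPK and CSTF2. Integrator cuts small nuclear RNA and many short promoter-proximal transcripts through INTS11, a relative of CPSF3, and carries a PP2A phosphatase. After the cut, XRN2 degrades the RNA still attached to RNA polymerase II, and SSU72 removes phosphates from the tail of the polymerase.

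EAF1 RNA does not check the labels, because the mutation replaces residues and leaves the gene in place. EAF1 was at 57.5, 58.4 and 56.5 CPM in wild-type replicates 1 to 3 and at 19.7, 17.9 and 18.8 CPM in the EAF1-mutant libraries. The groups were far apart, and EAF1 fell by 1.61 on the log2 scale (adjusted p = 2.48e-18, edgeR's quasi-likelihood test with Benjamini-Hochberg adjustment). This is RNA, and by western blot the paper reports little change of EAF1 protein in the mutant cells. EAF1 lies on 3p, where 94.8% of the 425 tested protein-coding genes were below 0. The median was -0.83 over the arm and -0.79 over the 20 nearest of these genes, so EAF1 was lower than its surroundings, at -0.78 and -0.82 after these were subtracted.

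Markers of HEK293T cells were present in both groups, with all 8 listed genes past the filter. Their summed level was 651.1, 663.8 and 678.3 CPM in wild-type and 414.7, 408.5 and 418.1 CPM in EAF1-mutant libraries, and VIM, an intermediate filament gene, was the most abundant. Of the list, 5 genes were lower in EAF1-mutant cells, VIM and the neurofilament gene NEFM among them, and 0 were higher. The blood markers PTPRC and CD3E were under 0.05 CPM on average, and the 2 liver markers stayed under 0.35 CPM in each library. Among 5 markers of colon epithelium, CDX1 was near 0, and VIL1, CDH1 and EPCAM were higher in EAF1-mutant cells. The colon list summed to 28.1, 29.6 and 26.5 CPM in wild-type and 34.7, 34.01 and 34.7 CPM in EAF1-mutant libraries. What part these marker differences have in the results on the members was not tested, and in bulk RNA fewer cells of a kind and less RNA per cell cannot be told apart.

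Members were called at a Benjamini-Hochberg adjusted p under 0.01 over all tested genes. At this threshold 5 members were higher and 15 lower in EAF1-mutant cells, and 14 were not called. Over all tested genes, 20.5% were higher and 21.1% lower. The members are well expressed, so protein-coding genes averaging 10 CPM or more, a cutoff picked once the values were known, are the closer background, and of these 10142 genes 23.9% were higher and 37.0% lower. The members' total share of 58.8% called lies near the 60.9% of that background. In 27 of the 34 members the EAF1-mutant libraries did not overlap the wild-type libraries, against 74.2% of the background genes. In edgeR with TMM scaling, only XRN2 and SSU72 passed the study's further limit of a log2 fold change over 0.5 in size, which 17.1% of the background genes passed. INTS14 and INTS11 lie close to that limit. INTS14 passed it in DESeq2 (-0.5021), without wild-type replicate 1 (-0.52) and without EAF1-mutant replicate 1 (-0.51), and with library totals alone INTS11 passed it (0.56) and XRN2 did not (-0.47).

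**Figure D1:**
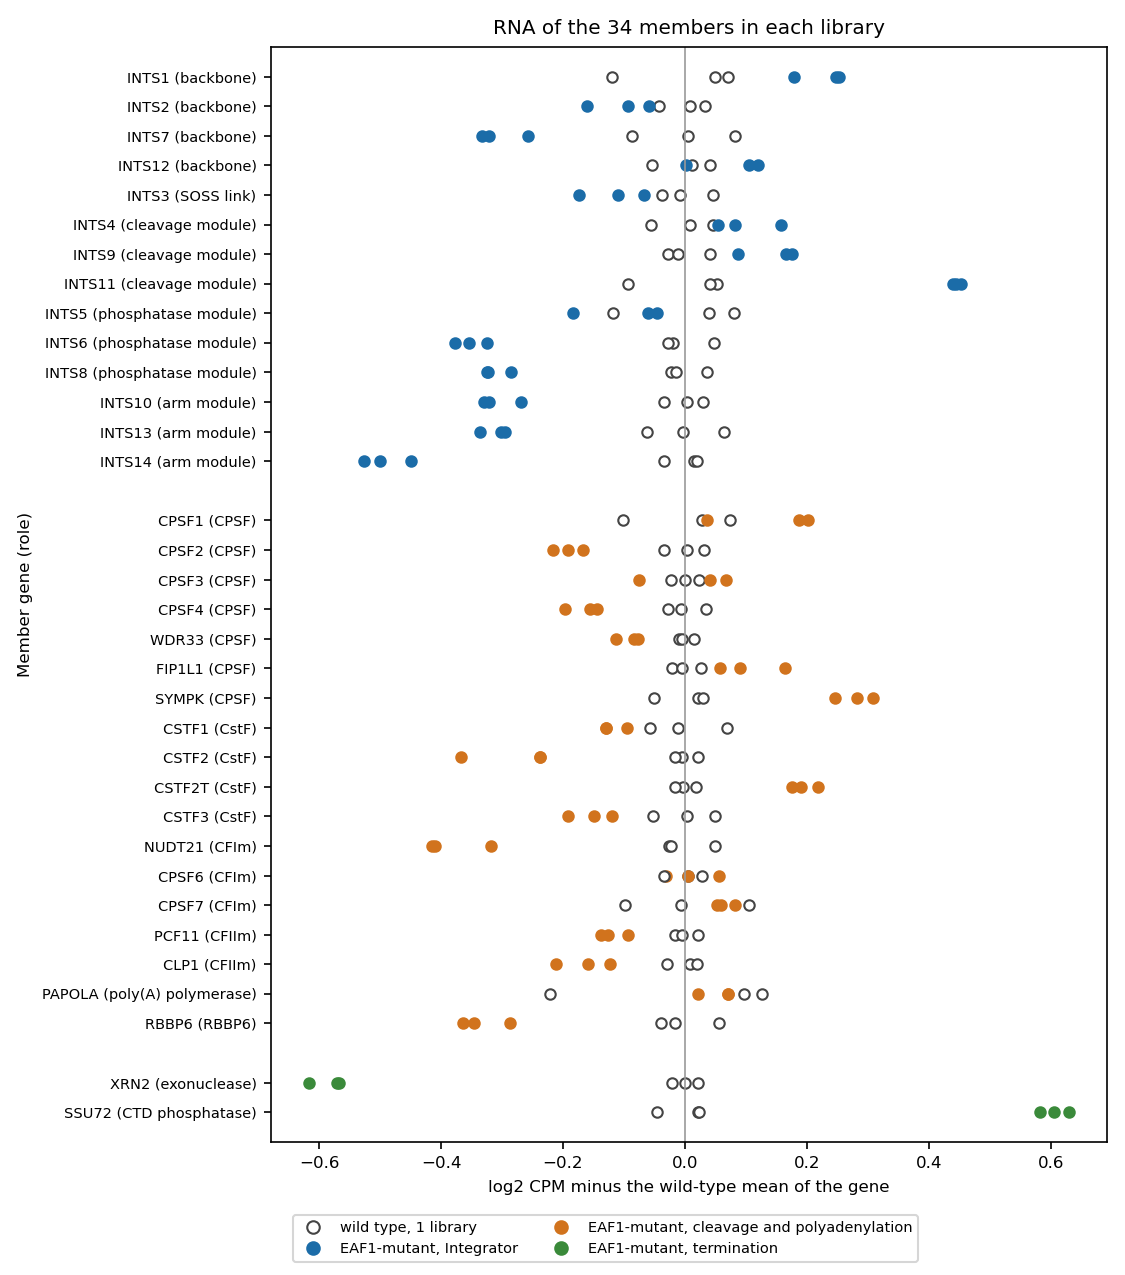
Each row is a member, and each point is a library, placed by its log2 CPM minus the wild-type mean of that gene, with open circles for wild-type and filled circles, colored by list, for EAF1-mutant libraries. XRN2 stands furthest to the left and SSU72 furthest to the right, while CPSF3, CPSF6 and PAPOLA show mixed circles.

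The direction of small differences depends on the scaling. Under TMM, the scaling used here, all tested genes together had a median of 0.01 on the log2 scale, and library totals alone put it at 0.13. With library totals alone, 8339 genes were higher and 4138 lower, in place of 5736 and 5902. The Integrator then had 5 genes higher and 6 lower, and the cleavage and polyadenylation list 6 higher and 3 lower. INTS4, INTS9, INTS12, CPSF1, FIP1L1, CPSF6 and CPSF7, which are not called under TMM, were then higher. INTS2, INTS5 and WDR33 turned from below to above 0, uncalled under either scaling. All changes below are relative to the TMM scaling.

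Taken as lists, the Integrator and the cleavage and polyadenylation factors had nearly the same centre. The median log2 fold change was -0.11 over the 14 Integrator genes and -0.10 over the 18 cleavage and polyadenylation genes, against -0.05 over the background of 10142 genes. With library totals alone both medians lay just above 0, at 0.0048 and 0.0107. In EAF1-mutant replicates 1 to 3 the Integrator median, relative to the wild-type mean, was -0.18, -0.06 and -0.14. The cleavage and polyadenylation median was -0.09, -0.12 and -0.10. Integrator was the lower of the lists in replicates 1 and 3 and the higher in replicate 2, so the difference of -0.0059 between the medians had no steady sign across libraries. It was 0.0143 without EAF1-mutant replicate 1 and 0.0106 without wild-type replicate 3. No test was made of a score over the members.

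Counts of called genes were also alike. In the Integrator 2 genes were higher and 6 lower, or 57.1% called, against 60.9% of the background genes. In the cleavage and polyadenylation list 2 were higher and 8 lower, or 55.6%. Without EAF1-mutant replicate 3 the count of the latter list went from 10 to 6, and that of the Integrator stayed at 8. The median size of the log2 fold change, regardless of direction, was 0.26 in the Integrator and 0.15 in the cleavage and polyadenylation list, and 0.20 in the background, and the difference was not tested.

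The RNA of each list was also summed. The 14 Integrator genes summed to 1007, 1004 and 1021 CPM in wild-type and to 938.3, 944.7 and 938.9 CPM in EAF1-mutant libraries. The 18 cleavage and polyadenylation genes summed to 1858, 1946 and 1911 CPM in wild-type and to 1834, 1790 and 1811 CPM in EAF1-mutant libraries. Both sums were lower in each EAF1-mutant library than in any wild-type library. Scaled by library totals alone the Integrator sum in CPM was 963.1, 965.5 and 982.1 in wild-type and 976.9, 984.2 and 973.3 in EAF1-mutant libraries, which overlap. The cleavage and polyadenylation sum was then 1777, 1872 and 1838 in wild-type and 1909, 1865 and 1877 in EAF1-mutant libraries, which overlap as well. Of the RNA counts of both lists together, the Integrator held 35.2%, 34.03% and 34.8% in wild-type and 33.9%, 34.5% and 34.1% in EAF1-mutant libraries, a ratio that no scaling changes, and here too the groups overlap.

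**Figure D2:**
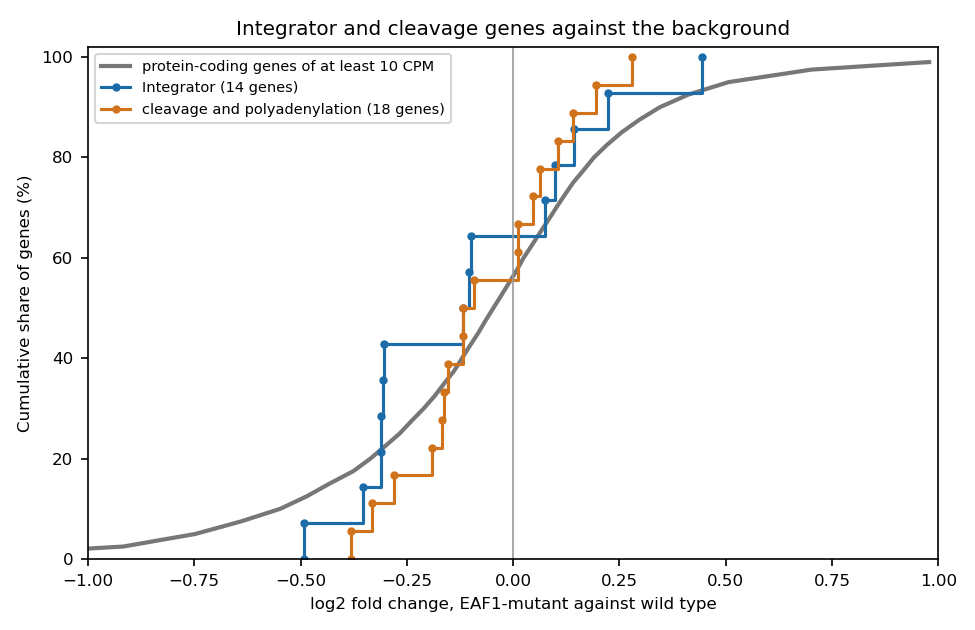
The curves give the share of genes, in percent, at or below each log2 fold change of EAF1-mutant against wild-type cells, for 14 Integrator genes, 18 cleavage and polyadenylation genes and the protein-coding genes of at least 10 CPM. The Integrator curve has a step of several genes near -0.31. Quartiles were -0.31 and 0.09 in the Integrator and -0.17 and 0.06 in the cleavage and polyadenylation list. In the background they were -0.27 and 0.14.

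Within the Integrator, the genes are described by module, and differences between modules were not tested. The cleavage module consists of INTS4, INTS9 and INTS11. INTS11, the endonuclease (chromosome 1, 1311585 to 1324687 on GRCh38), was at 91.6, 82.9 and 90.98 CPM in wild-type and at 121.0, 120.3 and 120.0 CPM in EAF1-mutant libraries. Every EAF1-mutant library lay above every wild-type library, and the EAF1-mutant values were nearly equal. INTS11 rose by 0.44 on the log2 scale (95% interval 0.36 to 0.53, adjusted p = 2.65e-09, edgeR). INTS9, its catalytically inactive partner, was at 14.96, 15.1 and 15.7 CPM in wild-type and at 17.1, 16.2 and 17.2 CPM in EAF1-mutant libraries. The groups did not overlap, but INTS9 was not called (log2 fold change 0.14, adjusted p = 0.0281, edgeR). INTS4, the scaffold of the pair, had a log2 fold change of 0.10 and was not called either (adjusted p = 0.0676, edgeR). The median of the module was 0.14.

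The arm module, INTS10, INTS13 and INTS14, was lower throughout. INTS14 (chromosome 15, 65578753 to 65611289) was at 78.6, 81.4 and 81.6 CPM in wild-type and at 59.0, 55.9 and 56.9 CPM in EAF1-mutant libraries. No EAF1-mutant library came near the wild-type range, and INTS14 fell by 0.49 on the log2 scale (95% interval -0.57 to -0.41, adjusted p = 2.46e-10, edgeR), the furthest of the Integrator genes. INTS13, which forms a pair with INTS14, was at 85.0, 92.8 and 88.6 CPM in wild-type and at 70.3, 72.3 and 72.0 CPM in EAF1-mutant libraries. INTS13 fell by 0.31 (adjusted p = 6.12e-07, edgeR), with no overlap. INTS10, the other gene of the module, fell by 0.31 as well (adjusted p = 7.45e-07, edgeR).

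The phosphatase module, INTS5, INTS6 and INTS8, holds PP2A on Integrator. INTS6 (chromosome 13, 51354077 to 51454264) was at 79.4, 83.1 and 78.9 CPM in wild-type and at 64.3, 62.9 and 62.0 CPM in EAF1-mutant libraries. The EAF1-mutant libraries lay close together below the wild-type ones, and INTS6 fell by 0.35 (95% interval -0.43 to -0.27, adjusted p = 5.89e-08, edgeR). INTS8 fell by 0.31 (adjusted p = 1.73e-07, edgeR), and 20.7% of its exonic bases are covered on the other strand by exons of CCNE2. INTS5 was not called (log2 fold change -0.10, adjusted p = 0.122, edgeR), and its groups overlapped. Without wild-type replicate 2 it was called lower (log2 fold change -0.16, adjusted p = 0.00621, edgeR).

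The backbone genes INTS1, INTS2, INTS7 and INTS12 did not move together. INTS1, the largest scaffold subunit (chromosome 7, 1470277 to 1504389), was at 113.6, 99.5 and 111.9 CPM in wild-type and at 122.4, 128.4 and 128.9 CPM in EAF1-mutant libraries. All EAF1-mutant libraries were above the wild-type ones, of which replicate 2 was lowest, and INTS1 rose by 0.22 on the log2 scale (95% interval 0.13 to 0.32, adjusted p = 1.82e-04, edgeR). INTS7 fell by 0.30 (adjusted p = 2.59e-06, edgeR). INTS2 and INTS12 were not called, with log2 fold changes of -0.10 and 0.08. INTS3, which also serves in the single-strand DNA sensor SOSS, was not called at -0.12 (adjusted p = 0.0144, edgeR). INTS3 was called lower without wild-type replicate 1 (0.00865), without wild-type replicate 2 (0.00299) and in DESeq2 (0.00481, all adjusted p, from edgeR where no tool is named).

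Of 9 listed Integrator partners, 3 were higher and 1 lower, 5 were not called, and their median was 0.01. The share called was 44.4%, against 60.9% of the background genes. NABP2, a DNA-binding subunit of SOSS, was at 45.8, 44.9 and 45.1 CPM in wild-type and at 55.04, 53.8 and 54.1 CPM in EAF1-mutant libraries. It was the highest of the list and rose by 0.26 on the log2 scale without overlap (adjusted p = 5.17e-06, edgeR), while its 20 nearest tested protein-coding genes had a median of -0.07. Its paralog NABP1 and PPP2R1A, the scaffold of PP2A, were the others that rose. WDR73, which acts with the partner protein BRAT1 on the cleavage module, was at 84.6, 83.8 and 83.97 CPM in wild-type and at 70.3, 71.2 and 72.2 CPM in EAF1-mutant libraries. It was the lowest, with no overlap (log2 fold change -0.24, adjusted p = 8.04e-06, edgeR), and its 20 nearest tested protein-coding genes had a median of -0.23, almost the same value. PPP2CA, the catalytic subunit of PP2A, had a log2 fold change of 0.01 and was not called.

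In the cleavage and polyadenylation list, the CPSF complex had a median log2 fold change of 0.01 over 7 genes, with 1 higher, 2 lower and 4 not called. CPSF3, the endonuclease of both poly(A) and histone RNA, was at 100.2, 103.5 and 101.9 CPM in wild-type and at 106.7, 96.6 and 104.8 CPM in EAF1-mutant libraries. The wild-type values lay inside the EAF1-mutant range, and the log2 fold change was 0.01 (95% interval -0.07 to 0.10, adjusted p = 0.827, edgeR), with a sign that turned when single libraries were left out (from -0.0164 without EAF1-mutant replicate 1 to 0.0531 without EAF1-mutant replicate 2). CPSF2, the inactive relative of CPSF3, was at 151.1, 158.1 and 155.1 CPM in wild-type and at 137.8, 135.6 and 133.2 CPM in EAF1-mutant libraries. The groups did not overlap, and CPSF2 fell by 0.19 (adjusted p = 9.89e-05, edgeR), a call that library totals alone end (log2 fold change -0.0761, adjusted p = 0.0876, edgeR).

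SYMPK encodes symplekin, a scaffold of both cleavage complexes (chromosome 19, 45815410 to 45863194). It was at 74.9, 71.3 and 75.3 CPM in wild-type and at 87.6, 89.7 and 91.4 CPM in EAF1-mutant libraries. All EAF1-mutant values lay above all wild-type values, and SYMPK rose by 0.28 on the log2 scale (95% interval 0.20 to 0.36, adjusted p = 1.90e-06, edgeR), the largest rise in its list. CPSF1, the largest subunit, was at 76.6, 70.0 and 79.1 CPM in wild-type and at 77.0, 86.4 and 85.5 CPM in EAF1-mutant libraries. EAF1-mutant replicate 1 fell within the wild-type range, and CPSF1 was not called (log2 fold change 0.14, adjusted p = 0.0174, edgeR), but it was called higher without that library (0.19, adjusted p = 0.00312, edgeR). CPSF1 was also called higher with no filter on low counts (adjusted p = 0.00517, edgeR) and with a filter of 1 CPM (0.00843). CPSF1 stayed uncalled, with a smaller log2 fold change, without wild-type replicate 2 (0.08), EAF1-mutant replicate 2 (0.11) or EAF1-mutant replicate 3 (0.12). CPSF4, a zinc finger subunit that binds the poly(A) signal, fell by 0.17 (adjusted p = 0.00204, edgeR). WDR33, which binds the same signal, and FIP1L1 were not called, at -0.09 and 0.10, but FIP1L1 was called higher with the filter of 1 CPM (adjusted p = 0.00981, edgeR). The call of CPSF4 is lost with library totals alone (adjusted p = 0.332, edgeR) and without EAF1-mutant replicate 3 (adjusted p = 0.0217, edgeR).

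The CstF complex reads the GU-rich element behind the cut, and its subunit CSTF64 comes from either of a pair of paralogs, CSTF2 on the X chromosome and the intronless CSTF2T on chromosome 10. CSTF2 was at 60.2, 61.3 and 59.8 CPM in wild-type and at 51.2, 46.8 and 51.3 CPM in EAF1-mutant libraries. CSTF2T was at 56.8, 56.4 and 57.7 CPM in wild-type and at 66.3, 65.0 and 64.4 CPM in EAF1-mutant libraries. The paralogs moved in opposite directions, each without overlap: CSTF2 fell by 0.28 (95% interval -0.37 to -0.19, adjusted p = 6.73e-06, edgeR), and CSTF2T rose by 0.19 (95% interval 0.12 to 0.27, adjusted p = 1.61e-04, edgeR). Per kilobase of all annotated exons, CSTF2T made up 38.7%, 38.0% and 39.2% of the RNA level of the pair in wild-type libraries. In EAF1-mutant libraries this share was 46.3%, 48.1% and 45.6%, above every wild-type value, and as a ratio within a library it is free of the scaling. Reads that match both paralogs could be counted for either, since the setting for such reads is not given in the sources used here. CSTF3, the scaffold of CstF, fell by 0.15 (adjusted p = 0.00246, edgeR), and CSTF1 was not called (log2 fold change -0.12, adjusted p = 0.0218, edgeR) unless wild-type replicate 3 was left out (-0.16, adjusted p = 0.00669, edgeR). The call of CSTF3 is lost with library totals alone (adjusted p = 0.45, edgeR), without EAF1-mutant replicate 2 (0.0221) and without EAF1-mutant replicate 3 (0.013).

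Of the cleavage factor I subunits, which bind UGUA elements before the poly(A) signal, NUDT21 changed and its partners did not pass the test. NUDT21 (chromosome 16, 56429133 to 56452199) was at 205.5, 216.6 and 206.1 CPM in wild-type and at 167.9, 157.5 and 157.0 CPM in EAF1-mutant libraries. The groups stood well apart, and NUDT21 fell by 0.38 (95% interval -0.46 to -0.30, adjusted p = 1.22e-08, edgeR), the furthest in its list. Its partners CPSF6 and CPSF7 had log2 fold changes of 0.01 and 0.06 with overlapping groups, and the difference from NUDT21 was not tested.

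RBBP6, which activates the cleavage reaction, was at 131.7, 140.8 and 133.8 CPM in wild-type and at 111.0, 105.2 and 106.6 CPM in EAF1-mutant libraries. All EAF1-mutant libraries were below the wild-type ones, and RBBP6 fell by 0.33 (95% interval -0.41 to -0.25, adjusted p = 1.27e-07, edgeR). PCF11, a cleavage factor II subunit that also binds the polymerase tail, was at 130.4, 127.1 and 128.1 CPM in wild-type and at 120.5, 117.8 and 116.9 CPM in EAF1-mutant libraries. PCF11 fell by 0.12 without overlap (adjusted p = 0.0076, edgeR), and its partner CLP1 fell by 0.16 (adjusted p = 0.00836, edgeR). Both lie close to the threshold: with the replicate number as a block the adjusted p was 0.0132 for PCF11 and 0.0147 for CLP1. Without EAF1-mutant replicate 3 the values were 0.0531 and 0.0141, without EAF1-mutant replicate 2 0.0314 and 0.0502, without wild-type replicate 1 0.0103 and 0.012, with no filter on low counts 0.0113 and 0.0129, with a filter of 1 CPM 0.0167 and 0.0146, and with library totals alone 0.944 and 0.441. CLP1 also lost its call without wild-type replicate 2 (0.0114), without EAF1-mutant replicate 1 (0.0222) and in DESeq2 (0.0202). PAPOLA, the main poly(A) polymerase, was at 179.8, 228.8 and 224.2 CPM in wild-type and at 212.9, 220.1 and 220.3 CPM in EAF1-mutant libraries. Wild-type replicate 1 stood alone below all others, and without it the log2 fold change of PAPOLA went from 0.05 to -0.07, neither called; PAPOLA was described at this length only after its values were seen.

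The 4 subunits shared with the histone cleavage complex thus divided: SYMPK higher, CPSF2 and CSTF2 lower, CPSF3 not called. Of 5 factors specific to histone 3' ends, 1 was higher and 1 lower, or 40% called, against 60.9% of the background genes. CASP8AP2, which encodes FLASH, was at 95.8, 105.4 and 97.9 CPM in wild-type and at 77.2, 73.4 and 73.0 CPM in EAF1-mutant libraries. The groups did not overlap, and CASP8AP2 fell by 0.42 (adjusted p = 1.11e-08, edgeR), with a median of -0.05 over its 20 nearest tested protein-coding genes. ZNF473, which encodes a zinc finger protein of the U7 particle, was at 29.04, 28.7 and 29.1 CPM in wild-type and at 36.4, 35.95 and 34.9 CPM in EAF1-mutant libraries. It rose by 0.31 without overlap (adjusted p = 2.06e-06, edgeR), with its 20 nearest genes at 0.19. The stem-loop binding gene SLBP and the U7 subunit genes LSM10 and LSM11 were not called, with log2 fold changes of 0.03, -0.10 and -0.12.

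Both termination factors changed, in opposite directions and further than any other member. XRN2, the torpedo exonuclease (ENSG00000088930, chromosome 20, 21303331 to 21389825), was at 177.7, 180.5 and 175.1 CPM in wild-type and at 119.9, 115.9 and 119.6 CPM in EAF1-mutant libraries. Wild-type and EAF1-mutant libraries formed tight, separate groups, and XRN2 fell by 0.58 on the log2 scale (95% interval -0.66 to -0.51, adjusted p = 2.45e-12, edgeR). SSU72, the tail phosphatase (ENSG00000160075, chromosome 1, 1541673 to 1574863), was at 69.9, 73.3 and 73.4 CPM in wild-type and at 109.8, 108.0 and 111.7 CPM in EAF1-mutant libraries. SSU72 rose by 0.61 (95% interval 0.53 to 0.68, adjusted p = 3.65e-12, edgeR), again with tight groups. Among the copies of SSU72 in the annotation are 6 SSU72-like genes, which held 0, 4 and 0 counts in the wild-type libraries and 70, 54 and 83 in the EAF1-mutant libraries, at most 1.08% of the CPM of SSU72 in any library. Of the further copies, SSU72P1 was at 0 and SSU72P6 reached at most 0.116 CPM.

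Among 14 listed 3' end and termination partners, 1 was higher and 6 lower, or 50% called, against 60.9% of the background genes. WDR82, a subunit of the PP1 phosphatase complex that acts on the polymerase and on SPT5, was at 162.1, 171.2 and 167.8 CPM in wild-type and at 91.2, 89.1 and 90.96 CPM in EAF1-mutant libraries. WDR82 fell by 0.89 (adjusted p = 2.64e-15, edgeR), and lies on 3p, whose median was -0.83. The 20 tested protein-coding genes nearest to WDR82 had a median of -0.71. RPRD1A, which binds the polymerase tail, was at 283.6, 290.2 and 281.0 CPM in wild-type and at 178.5, 176.9 and 175.8 CPM in EAF1-mutant libraries, and fell by 0.69 (adjusted p = 7.58e-14, edgeR), with a median of -0.44 over its 20 nearest tested protein-coding genes. PABPN1, the nuclear poly(A) binding protein, was at 122.8, 126.5 and 124.0 CPM in wild-type and at 85.7, 82.1 and 85.2 CPM in EAF1-mutant libraries. PABPN1 fell by 0.56 (adjusted p = 8.76e-12, edgeR), although 39.3% of its exonic bases also belong to the read-through gene BCL2L2-PABPN1. The 20 genes nearest to PABPN1 had a median of -0.55, almost its own value. In none of these partners did the groups overlap. PPP1CA, a catalytic subunit of PP1, was at 92.5, 82.9 and 92.2 CPM in wild-type and at 98.4, 96.7 and 99.1 CPM in EAF1-mutant libraries. It was the highest of the list, close to the threshold (log2 fold change 0.14, adjusted p = 0.00954, edgeR), with its 20 nearest genes at 0.18.

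Neighbouring genes moved with several members. For each member the median log2 fold change of the 20 nearest tested protein-coding genes, 10 on each side, was taken. INTS11 and SSU72 lie near the end of 1p with 217 kb between them, and 7 genes are neighbours of both. Over all tested genes, 20.5% were called higher and 21.1% lower. Of the 20 neighbours of INTS11, 19 were above 0, 17 were called higher and 1 lower, with a median of 0.55. Of the 20 neighbours of SSU72, 19 were above 0, 16 were called higher and 1 lower, with a median of 0.55 too. SSU72 therefore lay only 0.06 above its neighbours and INTS11 0.10 below them (-0.10), while the whole of 1p had a median of 0.09 over 872 genes.

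XRN2 lies on 20p, where 112 of 128 tested protein-coding genes were below 0. The median of the arm without XRN2 was -0.56, within 0.03 of XRN2 itself (-0.03), and that of the 20 nearest genes was -0.24. Of these 20 neighbours of XRN2, 7 were above 0, 3 were called higher and 12 lower. They lie up to 3608 kb away and include genes of few counts. FOXA2 (3.69) and CST7 (-0.11) averaged 0.19 and 0.18 CPM. INTS7, on 1q, had a log2 fold change of -0.30 beside -0.32 for its arm and -0.36 for its neighbours. CSTF2, on Xq, had one of -0.28 beside -0.35 for the arm, but 0.07 for its neighbours. SYMPK, on 19q, had one of 0.28 beside 0.22 for the arm and -0.01 for its neighbours. CPSF2, on 14q, had one of -0.19 beside -0.15 for the arm and 0.21 for its neighbours. It was at -0.04 minus the arm and at -0.41 minus the neighbours. Some of the genes that fell furthest had neighbours that were lower too. Minus its neighbours' median of -0.29, INTS14 was at -0.21 in place of -0.49. INTS6 was at -0.20 in place of -0.35, with neighbours at -0.15, and NUDT21 at -0.23 in place of -0.38, also with neighbours at -0.15. INTS10 was at -0.31 with neighbours at 0.12, INTS13 at -0.31 with neighbours at 0.01, and RBBP6 at -0.33 with neighbours at -0.04.

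Across the 34 members the log2 fold change and that of the neighbours had a Pearson r of 0.636 and a Spearman rho of 0.43. Without SSU72, INTS11 and XRN2, a choice made after the data were seen, they were 0.321 and 0.252. Over the 10142 background genes they were 0.589 and 0.488. These are descriptions across genes, which share libraries and neighbours and are not independent replicates. After the neighbours' median was subtracted, the median was -0.12 over the Integrator and -0.14 over the cleavage and polyadenylation genes. Copy number was not measured, and the part of position in these values was not tested.

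**Figure D3:**
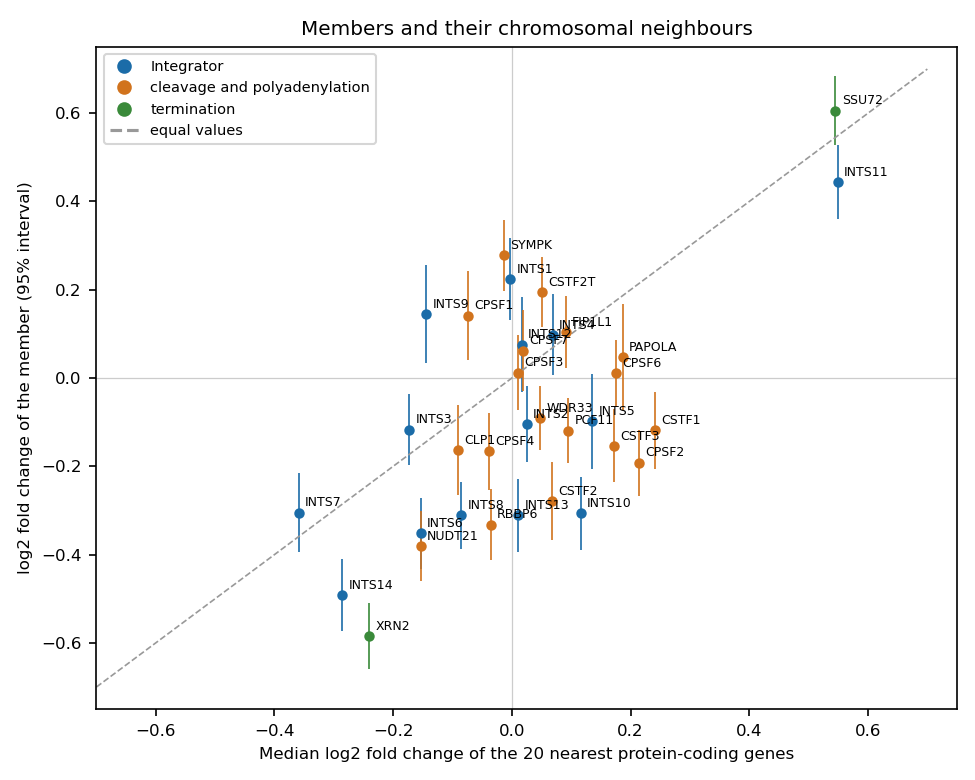
Each point is a member, with its log2 fold change and 95% interval on the vertical axis and the median log2 fold change of its 20 nearest protein-coding genes on the horizontal axis, and the dashed line marks equal values. SSU72 and INTS11 lie near it at the upper right, and INTS7 at the lower left.

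The GC content of the reference transcript went with the direction, a relation noticed only after the values were seen. The background genes were divided into 5 classes of nearly equal size by GC content. In the GC-richest class, above 57.4%, the median log2 fold change was 0.03, and in the GC-poorest it was -0.09. Of the background genes, 32.4% were called higher and 26.3% lower in the GC-richest class, and 18.2% higher and 42.8% lower in the GC-poorest. Of the 5 members in the GC-richest class, 3 were higher, 0 lower, and the median was 0.22. Of the 7 members in the GC-poorest class, 5 were lower, 0 higher, and the median was -0.31. Across the members Pearson's r was 0.557 and Spearman's rho 0.505, and over the background genes 0.113 and 0.141. With a trend on GC content subtracted, INTS1 kept a log2 fold change of 0.10 in place of 0.22, and INTS14 one of -0.44. The part of base composition in these differences was not tested.

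**Figure D4:**
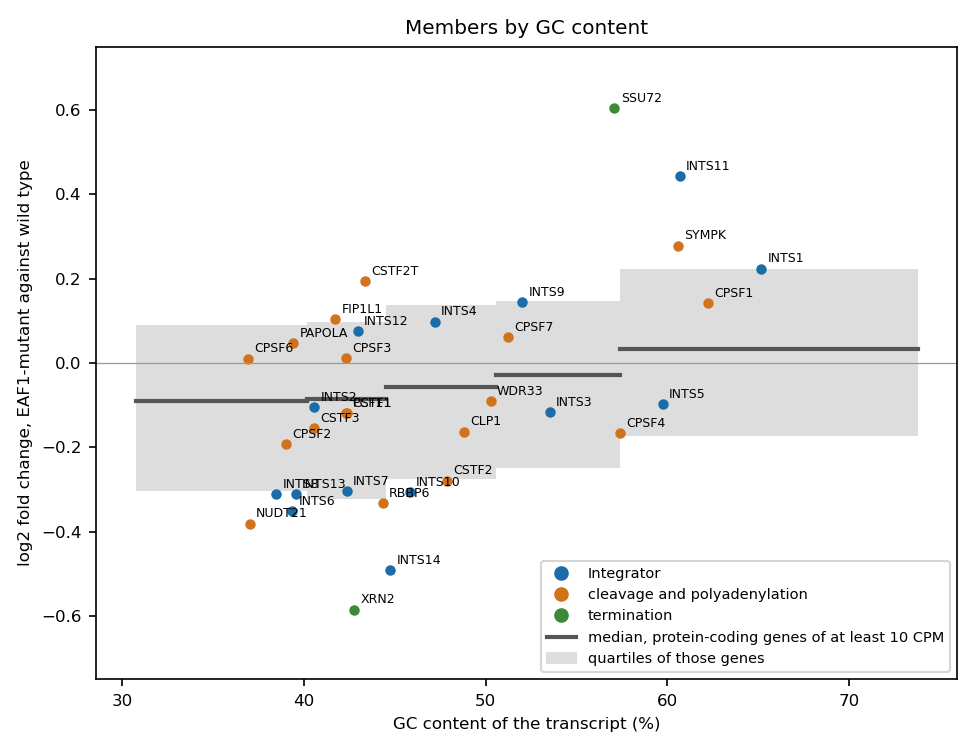
Points are members by the GC content of their reference transcript, in percent, and their log2 fold change, with dark lines for medians and grey bands for quartiles of protein-coding genes of at least 10 CPM, in 5 classes of GC content. INTS1, INTS11 and SYMPK lie high at the GC-rich end, and NUDT21 and INTS6 low at the GC-poor end.

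The promoters of the members were searched for short motifs. The RefSeq table of promoters on GRCh38.p14 covers 250 bases before and 50 after each start, and 29 of the 34 members matched by symbol. INTS5, INTS8, INTS9, INTS10 and CPSF1 did not match. The table's 35116 windows were searched on both strands for 14 short motifs, picked after the members' values were known. TGACGTCA, the cyclic AMP response element, was found in 5 of 29 members (17.2%), in 1.85% of all windows and in 4.25% of background genes. The members with it were INTS7, CSTF1, CSTF3, RBBP6 and XRN2. All 5 had a log2 fold change below 0, and INTS7, CSTF3, RBBP6 and XRN2 were called lower. Of the 10142 background genes, 5716 were below 0 and 37.0% were called lower. Over the background genes with a window, the median log2 fold change was -0.06 in 351 genes with the motif and -0.05 in 7901 without. TGACGTCA is shown, of the 14, because of the values of its members, a choice made after they were seen. The 30 bases around the motif are given for each, 5' to 3' on the gene's strand, with the motif in capitals, to show it in its surroundings.
INTS7: ccgcgccaaacTGACGTCAcgctctctgat
CSTF1: caacagcccctTGACGTCAagcttgacgca
CSTF3: agccagggtagTGACGTCAgcccaggaatt
RBBP6: cgtgcgctttgTGACGTCAgccgccccgcc
XRN2: cggcggcgccgTGACGTCActtccgttctc
These stretches lie at chr1:212035720-212035749 (minus strand), chr20:56392464-56392493 (plus), chr11:33161617-33161646 (minus), chr16:24539461-24539490 (plus) and chr20:21303266-21303295 (plus). The motif begins 181, 170, 155, 94 and 54 bases before the start in the same order. Each lies before a RefSeq start, and those of CSTF1, CSTF3 and RBBP6 also lie within the span GENCODE gives the gene. Of the matched members, 4 have more than 1 start in the table.

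The other motifs were commoner or held by fewer members, and for each the share of all windows and then that of background genes is given. The GC box GGGCGG was in 20 of the 29 members (69%), in 45% of all windows and in 79.2% of background genes. The CCAAT box CCAAT was in 13 members (44.8%), 34.6% of windows and 44.5% of background genes. The ETS element CCGGAAG was in 11 members (37.9%), 10.3% and 25.1%, and CCGGAAGTG, which contains it, in 4 members (13.8%), 2.36% and 6.83%. The TATA box TATAAA was in 0 members, 11.5% and 7.88%. The E box CACGTG was in 3 members (10.3%), 7.26% and 13.4%. The NRF1 element GCATGCGC was in 3 members (10.3%), 3.05% and 7.11%, and the same letters with GC before them in 1 (3.45%), 1.24% and 3.02%. The YY1 element AAGATGGC was in 3 members (10.3%), 2.89% and 7.4%, and GATGGCGG, which overlaps it, in 2 (6.9%), 2.34% and 6.37%. The E2F element TTTGGCGC was in 3 members (10.3%), 0.652% and 1.49%, and TTCCCGCC in 2 (6.9%), 3.16% and 7.14%. ACTACAA, part of the ZNF143 element, was in 1 member (3.45%), 2.77% and 5.13%. A match describes the letters only, and no binding was measured here.

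Levels were compared between genes as RPKM, which is CPM divided by the length of the gene's reference transcript in kilobases. In wild-type cells the median level was 17.7 RPKM over the Integrator genes and 20.5 RPKM over the cleavage and polyadenylation genes. With the length of all annotated exons in its place, these medians were 10.6 and 12.9 RPKM. The highest Integrator level was that of INTS11, at 41.9 ± 2.31 RPKM (SD, n = 3), and the lowest that of INTS9, at 5.99 ± 0.151 RPKM. This order too depends on the length taken, since over all annotated exons INTS11 had 10.8 RPKM, below the 29.03 RPKM of INTS13 and the 19.1 RPKM of INTS14, and INTS4 was lowest with 2.99 RPKM beside 3.11 RPKM for INTS9. CPSF3 and CPSF2, the matching pair of CPSF, had levels of 45.1 ± 0.731 and 11.9 ± 0.27 RPKM. Among cleavage and polyadenylation genes the level was highest for NUDT21, at 47.7 ± 1.42 RPKM, followed by PAPOLA at 46.7 ± 5.99 RPKM, which did not differ beyond their spread. Over all annotated exons NUDT21 was again highest, at 35.3 RPKM, and PAPOLA was at 15.5 RPKM, below CPSF3, CPSF6, CSTF2 and CSTF3. SSU72 had a level of 56.2 ± 1.53 RPKM and XRN2 one of 52.1 ± 0.79 RPKM. In EAF1-mutant cells SSU72 was at 85.5 ± 1.43 RPKM and XRN2 at 34.8 ± 0.648 RPKM, so SSU72 stood above XRN2 in both groups on this length. Over all annotated exons the order was the opposite in both groups. SSU72 then had 10.4 RPKM in wild-type and 15.9 RPKM in EAF1-mutant cells, and XRN2 had 52.1 RPKM and 34.8 RPKM.

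**Figure D5:**
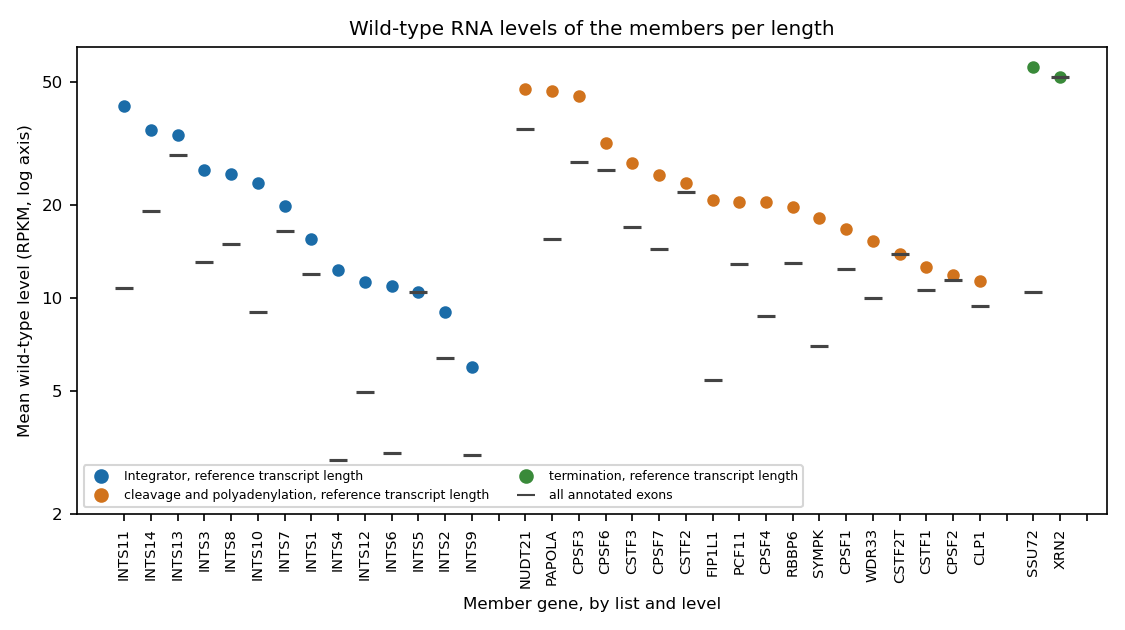
Points give the mean wild-type level of each member in RPKM, on a log axis, by the length of its reference transcript, and dashes the level by all annotated exons. Members are ordered by level within their list, and INTS9 is the lowest and SSU72 the highest point.

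Some counts may be shared with other genes. The strand setting of the counting is not given in the sources used here, and exons on the other strand cover 25.7% of WDR33, 21.7% of INTS12 and 17.0% of PCF11. INTS4 has pseudogene copies, INTS4P1 and INTS4P2, with wild-type means of 4.40 and 3.72 CPM beside 38.7 CPM for INTS4. INTS6 has the related gene INTS6L, with a wild-type mean of 33.3 CPM.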

How the data were processed

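Ribosomal RNA-depleted RNA of 3 wild-type and 3 EAF1-mutant libraries was used. The authors trimmed the reads, aligned them to GRCh38 by HISAT2, assigned them to Ensembl genes by Rsubread and deposited the raw counts. Of 58395 genes, 57754 matched GENCODE v44 (also GRCh38), the source of symbols, positions and lengths. Low counts were filtered (filterByExpr, 28025 genes left) and libraries scaled (TMM) with edgeR 4.0.16 under R 4.3.3. Its quasi-likelihood test was adjusted by Benjamini-Hochberg over all tested genes and called at 0.01. The study's limit of 0.5 on the log2 fold change was counted too. Alternatives were DESeq2 1.42.0, other scalings and filters, a replicate block, left-out libraries and chromosomal position. The GC trend and the 10 CPM background were chosen after seeing the data. The fit was tested on simulated data. Members and lists were chosen with earlier results of these data known. Values in every library are given for members past both limits, the 3 highest and 3 lowest of each main list, nucleases and their relatives, the CstF paralogs, SYMPK, PCF11 and SSU72, and for partners past both limits or at the ends of their list. Replicates differed by more than counting noise. PRO-seq and ChIP-seq were not used here. Some marker genes are not reported here.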

Additional observations from a re-analysis of the deposited data

How the results depend on the processing

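With library totals alone, the Integrator median was 0.0048, the cleavage and polyadenylation median 0.0107, and INTS2, INTS5 and WDR33 were at 0.0109, 0.0172 and 0.0246, all turned above 0 by the shift of scale. The limit on fold size left, in edgeR with TMM, 5695 of all genes, 0 Integrator and 0 cleavage and polyadenylation genes, but INTS14 passed it in DESeq2 (-0.5021) and INTS11 with library totals alone (0.56). The Integrator median was -0.0635 minus the arm. The cleavage and polyadenylation median was -0.0857 with a filter of 1 CPM, -0.0364 minus the arm, -0.14 minus the 20 nearest genes and -0.0516 minus the GC trend, which was chosen after seeing the data. The difference of the medians was 0.0221 minus the nearest genes and -0.0863 minus the GC trend. Minus the arm, INTS7 was at 0.0202, CSTF2 at 0.0688, INTS3 at 0.21 and CPSF6 at -0.0352. Minus the nearest genes, INTS7 was at 0.054, INTS11 at -0.10, INTS3 at 0.0559, CPSF6 at -0.16 and PAPOLA at -0.14. All of these signs turned. CPSF6 was at -2e-04 in DESeq2. The cause was not tested. With a library left out, the cleavage and polyadenylation count ran from 6 to 11, its median from -0.12 to -0.0973, and the difference of the medians from -0.0545 to 0.0143. CPSF3 ran from -0.0164 to 0.0531, CPSF6 from -0.0229 to 0.0298, CPSF7 from 7e-04 to 0.1054, and PAPOLA from -0.0699 to 0.0988. The deviations of same-numbered libraries had correlations of -0.034, -0.218 and 0.203, with no steady sign. With so few libraries these values cannot decide whether the numbers pair them. The replicate block called 11533 genes, 8 Integrator and 8 cleavage and polyadenylation genes. It ended the calls of PCF11 and CLP1 and changed no other member's call.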
